A study of Mus musculus with 768 samples.

Results

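The AMPA and NMDA receptor subunits were followed through single nuclei of the mouse striatum. The 8 subunits were taken by name from the 24489 genes of a joint table of read counts: Gria1, Gria2, Gria3 and Gria4, which encode the AMPA receptor subunits GluA, and Grin1, Grin2a, Grin2b and Grin3a, which encode NMDA receptor subunits GluN. All 8 were present under these symbols. The nuclei came from untreated C57BL/6 mice of 2 genotypes, Oprm1-Cre:H2BG and Slc32a1-Cre:H2BG, both carrying H2BG, which the labels do not spell out. Oprm1-Cre is driven from the gene of the mu opioid receptor, which in striatum is dense in the patches, and Slc32a1-Cre from the gene of the vesicular GABA transporter, which GABAergic neurons use. Each genotype filled 1 plate of 16 by 24 wells, called the Oprm1 plate and the Slc32a1 plate. No animals or ages are named, so each genotype counts as 1 sample and no test was made between groups. Intervals given for levels and shares are exact 95% intervals that cover counting error only, since reads without molecular identifiers are not independent molecules.

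AMPA and NMDA receptors are the ionotropic receptors through which cortical and thalamic axons excite striatal neurons. AMPA receptors are tetramers of GluA subunits that carry the fast current, and the presence of GluA2 makes the channel nearly impermeable to calcium. NMDA receptors join the obligatory GluN1 with GluN2 subunits, which set the kinetics, or with GluN3 subunits, which lower calcium entry. The receptors of GluN1 and GluN2 open when glutamate and a co-agonist bind and depolarisation lifts the magnesium block, whereas those of GluN1 and GluN3 are gated by glycine. Spiny projection neurons (SPNs), the GABAergic output neurons of the striatum, express either the dopamine receptor D1 or D2, and the interneurons are GABAergic or cholinergic.

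The property that separates GluA2 from the other AMPA subunits, and the NMDA subunits from the AMPA subunits, sits at 1 codon of the pore loop. The coding strand around that codon is therefore shown for 6 of the subunits, 5′ to 3′, as annotated in GENCODE M21 on GRCm38, with the codon of the glutamine/arginine site of the AMPA subunits and of the asparagine (N) site of the NMDA subunits in capitals. In the genome the 4 AMPA genes carry a glutamine codon there, and in Gria2 transcripts editing of the RNA recodes it to arginine. Read counts do not show editing.
Gria1: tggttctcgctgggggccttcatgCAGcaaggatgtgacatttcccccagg
Gria2: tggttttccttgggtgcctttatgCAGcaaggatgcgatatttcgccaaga
Gria3: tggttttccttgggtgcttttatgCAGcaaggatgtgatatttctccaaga
Gria4: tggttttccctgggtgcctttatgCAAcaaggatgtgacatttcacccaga
Grin1: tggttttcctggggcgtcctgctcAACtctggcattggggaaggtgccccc
Grin2a: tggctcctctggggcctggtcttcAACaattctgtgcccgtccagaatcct

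The capital codon lies at chr11:57243094-57243096 in Gria1 (plus strand), chr3:80706911-80706913 in Gria2 (minus strand), chrX:41610265-41610267 in Gria3 (plus strand) and chr9:4464137-4464139 in Gria4 (minus strand). In the NMDA genes shown, both on the minus strand, it lies at chr2:25297386-25297388 in Grin1 and chr16:9653561-9653563 in Grin2a. Across this window Gria2 and Gria3 shared 48 of 51 bases, the highest count among the AMPA pairs, and Gria1 shared 41 of 51 with each of them.

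Wells with at least 20000 reads on 1000 or more genes were retained, 736 in all, with median depths of 169398 and 175337 reads in the Oprm1 and Slc32a1 plates. Nuclei were clustered with 56 glutamate synapse genes left out, the 8 subunits among them, and classed by markers. D1-like nuclei numbered 493, of which 60.6% came from the Oprm1 plate, and they made 84.2% of its nuclei and 50.9% of those of the Slc32a1 plate. D2-like nuclei made 6.76% (24 nuclei) and 39.1%, SPN-like nuclei with neither call numbered 18 in each plate, and interneuron-like nuclei 13 and 16. The SPN-like clusters that held most D1-like nuclei differed between the plates, cluster 0 for Slc32a1-Cre and clusters 2, 3 and 4 for Oprm1-Cre. Reads of Y-linked genes were found in 91% of nuclei of the Oprm1 plate and in 0 nuclei of the Slc32a1 plate (a count of 0 allows up to 0.787%), and Xist reads in 1.97% and 72.7%, so that genotype, plate and the sex of the animals cannot be told apart. Markers of excitatory neurons, vessel and ependymal cells were near 0 in the SPN-like classes, with summed levels of 7 excitatory markers of 0.484 to 1.70 CPM, the reads of a gene scaled to 1000000 reads in all. The 5 markers of oligodendrocyte precursors summed to 87.6 and 36 CPM across the D1-like nuclei of the Oprm1 and Slc32a1 plates and to 23 and 33.7 CPM across the D2-like nuclei. Vcan gave 70.1 CPM of the first sum and 22.8 CPM of the second. Astrocyte markers summed to 49.5 to 90.8 CPM and oligodendrocyte markers to 130.4 to 247.4 CPM in these classes.

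Gria2 was the highest AMPA subunit of SPNs (chr3:80681450-80802835, minus strand). Summed over D1-like nuclei it reached 3359 CPM (3344 to 3375) in the Oprm1 plate and 3020 CPM (3002 to 3038) in the Slc32a1 plate, and over D2-like nuclei 3344 CPM (3289 to 3401) and 3031 CPM (3011 to 3051). Single D1-like nuclei of the Oprm1 plate ranged from 35 CPM through a median of 3243 to 9538 CPM, and those of the Slc32a1 plate from 606.5 through 2941 to 7609 CPM. A read of Gria2 was present in every D1-like nucleus and in all but 1 of the D2-like nuclei. The ranges of both classes and both plates overlapped almost wholly.

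Gria1 (chr11:57011387-57330244, plus strand), whose product GluA1 joins the synapse with activity, was even across the SPN classes. Its summed level was 775.8 CPM (768.5 to 783.2) and 772.4 CPM (763.2 to 781.6) across the D1-like nuclei of the Oprm1 and Slc32a1 plates, and 718.3 CPM (692.7 to 744.6) and 765.5 CPM (755.6 to 775.5) across the D2-like nuclei. Medians per nucleus were 696.6, 708.9, 705.3 and 644.5 CPM in the same order. The counting intervals of 3 of the 4 groups overlapped, and the 24 D2-like nuclei of the Oprm1 plate were the lowest.

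Gria3 (chrX:41400854-41678601, plus strand), the X-linked AMPA subunit, differed more. It stood at 599.8 CPM (593.4 to 606.3) across the D1-like nuclei of the Oprm1 plate and 758.6 CPM (749.5 to 767.7) in the Slc32a1 plate. D2-like nuclei had 1030 CPM (999.5 to 1062) and 731.8 CPM (722.1 to 741.6). The median nucleus held 474.5 CPM among D1-like and 793.8 CPM among D2-like nuclei of the Oprm1 plate, within ranges from 0 to 3113 and from 0 to 2746 CPM. So the D2-like nuclei of the Oprm1 plate were high as a group, while single nuclei of the classes overlapped.

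Gria4 (chr9:4417896-4796234, minus strand), which is best known for fast AMPA currents of interneurons, was the lowest AMPA subunit of SPNs and the one that varied most between plates. It summed to 97.2 CPM (94.6 to 99.9) across the D1-like nuclei of the Oprm1 plate and to 258.6 CPM (253.31 to 263.98) in the Slc32a1 plate. D2-like nuclei had 133.1 CPM (122.2 to 144.7) and 199.4 CPM (194.3 to 204.5). A Gria4 read was found in 45.5% of D1-like nuclei of the Oprm1 plate (39.7 to 51.3%) and in 72.7% of those of the Slc32a1 plate (65.8 to 78.8%), and after thinning each nucleus to 50000 reads in 40.1% and 65.3%. The median D1-like nucleus of the Oprm1 plate therefore held 0 CPM, against 116.3 CPM in the Slc32a1 plate, and the highest nuclei reached 1361 and 1744 CPM.

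**Figure D1:**
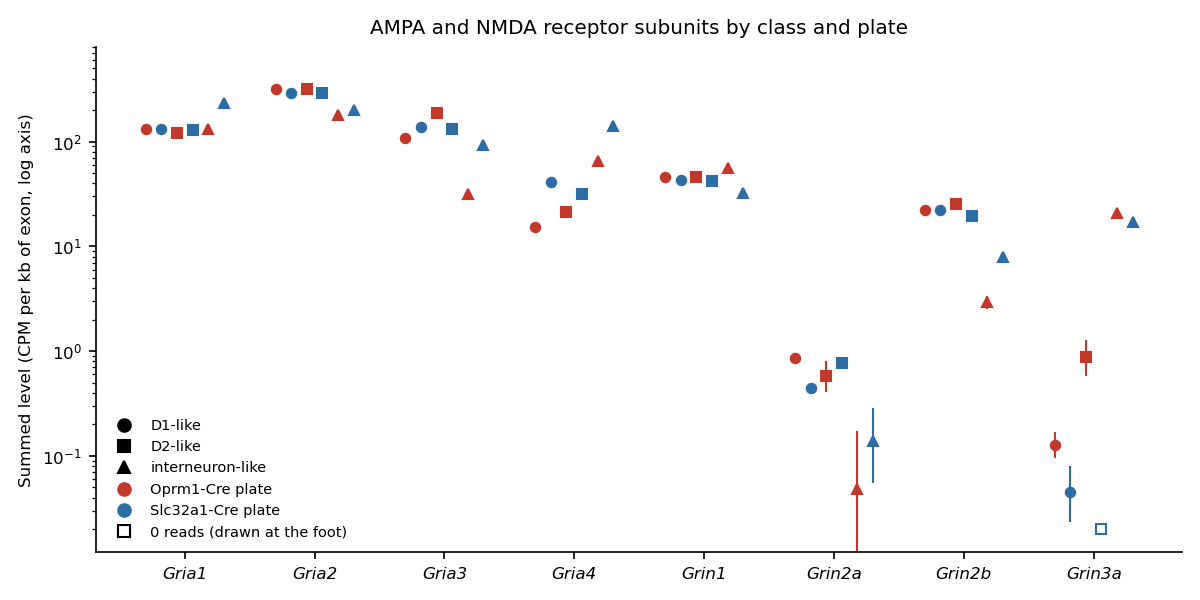
Summed level of each subunit in CPM per kilobase of exon (log axis) in D1-like, D2-like and interneuron-like nuclei of the Oprm1 plate (red) and the Slc32a1 plate (blue), with exact 95% counting intervals. Gria2 lies highest in every SPN-like group shown, Grin2a is low throughout, and Grin3a is near the foot in SPN-like nuclei and higher in interneuron-like nuclei.

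Among NMDA subunits, Grin1 (chr2:25291181-25319187, minus strand) and Grin2b (chr6:135713233-136173511, minus strand) were found in nearly all SPNs. Grin1 summed to 199.9 CPM (196.2 to 203.7) and 188.4 CPM (183.89 to 192.99) across the D1-like nuclei of the Oprm1 and Slc32a1 plates and to 200.2 CPM (186.8 to 214.4) and 184.6 CPM (179.8 to 189.6) across the D2-like nuclei. Grin2b, the GluN2 subunit of slow currents that is rich in striatum, summed to 554.5 CPM (548.4 to 560.8) and 552.7 CPM (544.9 to 560.5) in D1-like nuclei. In D2-like nuclei it summed to 629.1 CPM (605.1 to 653.8) and 488.3 CPM (480.4 to 496.4). A Grin2b read was present in all D1-like nuclei of both plates. The antisense gene Grin1os overlaps Grin1 and held 4.15 to 7.27 CPM in these groups, and since strand use in counting is not given, the reads of these 2 genes cannot be separated.

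Grin2a (chr16:9567898-9995560, minus strand), the GluN2 subunit of faster currents, was sparse. It summed to 12.9 CPM (12 to 13.9) and 6.60 CPM (5.78 to 7.51) across the D1-like nuclei of the Oprm1 and Slc32a1 plates, with a read in 18.7% and 10.3% of nuclei. In D2-like nuclei it summed to 8.73 CPM (6.11 to 12.1) and 11.5 CPM (10.3 to 12.8), with a read in 16.7% and 9.40%. The 5 highest nuclei held 71.6% of the Grin2a reads of D1-like nuclei in the Slc32a1 plate and 76.6% of those of its D2-like nuclei, so these sums rest on few nuclei. Grin3a (chr4:49661611-49845744, minus strand), whose product GluN3A lowers calcium entry, gave reads in 5 and 3 D1-like nuclei of the Oprm1 and Slc32a1 plates. It gave reads in 1 of 24 D2-like nuclei of the Oprm1 plate and in 0 of the Slc32a1 plate, where 0 reads allow a level of up to 0.101 CPM.

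The makeup of each receptor pool was then taken as reads per kilobase of exon over the pool total. Such shares depend on the length used, and whether reads were counted over exons only is not known. In D1-like nuclei Gria2 made 55.6% of the AMPA pool in the Oprm1 plate and 48.2% in the Slc32a1 plate, Gria1 22.8% and 21.9%, Gria3 18.9% and 23.1%, and Gria4 2.67% and 6.86%. In D2-like nuclei Gria2 made 49.1% and 49.5%, Gria1 18.8% and 22.3%, Gria3 28.9% and 22.8%, and Gria4 3.25% and 5.42%. Thus D1-like and D2-like nuclei of the Slc32a1 plate had nearly the same AMPA pool, whereas those of the Oprm1 plate differed most in Gria3. The order of Gria1 and Gria3 in the pool was not the same in all groups.

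Grin1 and Grin2b together made most of the NMDA pool of SPNs, but their order followed the length used. Per kilobase of exon Grin1 made 65.4% and 63.8% of the pool across the D1-like nuclei of the Oprm1 and Slc32a1 plates and 61.3% and 66.9% in D2-like nuclei, and Grin2b made 31.9%, 33%, 33.9% and 31.2%. Per kilobase of coding sequence Grin2b came first with 63.3%, 64.8%, 65.6% and 62.5%, and Grin1 had 34.5%, 33.4%, 31.5% and 35.7%. The exon length annotated for Grin2b is 24794 bases with 4447 coding, against 4368 and 2943 bases for Grin1. Grin2a stayed between 0.652% and 1.23% of the pool by exon length, and Grin2c, Grin2d and Grin3b, the remaining subunit genes, each held at most 2.85%. Grin3b and Grin2d overlap Tmem259 and Kdelr1 on the opposite strand, so their few reads are uncertain. The AMPA pool was 8.23 and 8.84 times the NMDA pool in D1-like nuclei and 8.68 and 9.24 times across the D2-like nuclei.

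**Figure D2:**
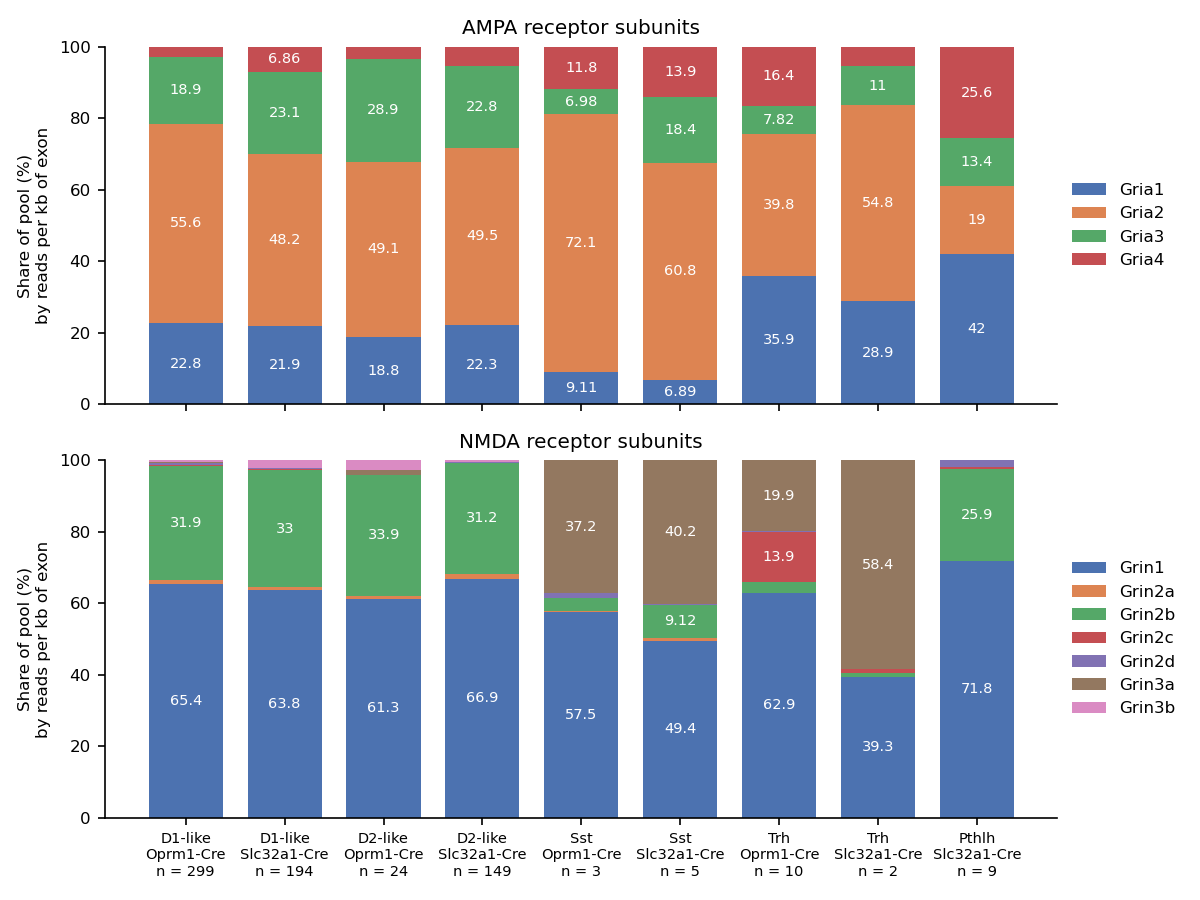
Share of each subunit in the AMPA pool (top) and the NMDA pool (bottom), in percent by reads per kilobase of exon, for D1-like, D2-like and 3 sets of interneuron-like nuclei of each plate, with the number of nuclei under each bar. Gria2 is the widest AMPA band in all SPN-like bars and in Sst nuclei and is narrow in Pthlh nuclei (19%), and Grin3a takes 37.2% and 40.2% of the NMDA pool in Sst nuclei.

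The same picture held in single nuclei. Gria2 was the top AMPA subunit per kilobase of exon in 85.3% of D1-like nuclei of the Oprm1 plate and 74.7% of those of the Slc32a1 plate, and in 83.3% and 71.1% of D2-like nuclei. The Gria2 share of the AMPA pool had medians of 55.4% and 49.5% over D1-like nuclei and 50.3% and 50.2% over D2-like nuclei. All 4 AMPA subunits had a read in 42.1% and 70.1% of D1-like nuclei, and in 36% and 62.2% after thinning to 50000 reads. Reads of Grin1 together with a GluN2 gene were found in 98% and 94.8% of D1-like nuclei. Across SPN-like nuclei of a plate, Pearson's r between the log levels of any pair of subunits lay between -0.14 and 0.17 (702 nuclei in all), which share library and depth within a nucleus, and such weak values in sparse counts are no finding.

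D1-like nuclei were then set against D2-like nuclei within each plate, as log2 ratios of the summed CPM with 5 CPM added, which makes ratios of low genes too small. A subunit counted as different past 0.5 in either direction, among genes with at least 5 CPM in either class. In the Oprm1 plate 2 of 8 subunits lay below -0.5 and 0 above 0.5, where 19.3% and 30.3% of all 11104 genes did. Gria3 was lower in D1-like nuclei with a log2 ratio of -0.78, and Grin3a had -0.95. The Grin3a value rests on 1 D2-like nucleus with 252.1 CPM, without which the log2 ratio was 0.25, and Gria3 kept its call whichever nucleus was left out (-0.84 to -0.67). In the Slc32a1 plate 1 of 7 measured subunits lay below -0.5, Grin2a at -0.51, and 0 above 0.5, where 10.4% and 14.6% of all 10883 genes did. Leaving out single nuclei moved that Grin2a value between -0.81 and -0.22. Gria3 had a log2 ratio of 0.05 in this plate, Gria1 0.01, Gria2 -0.01 and Grin1 0.03, beside 0.11 for Gria1, 0.01 for Gria2 and -0.00 for Grin1 in the Oprm1 plate. Gria4 had -0.43 in the Oprm1 plate and 0.37 in the Slc32a1 plate, short of the threshold and opposite in sign, and leaving out 1 nucleus took the first to between -0.55 and 0.06. Grin2b had -0.18 and 0.18, and Grin2a had 0.39 in the Oprm1 plate, between 0.25 and 0.70 with 1 nucleus left out. The median over the measured subunits was -0.09 and 0.03 in the 2 plates, beside 0.10 and 0.03 over all measured genes.

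**Figure D3:**
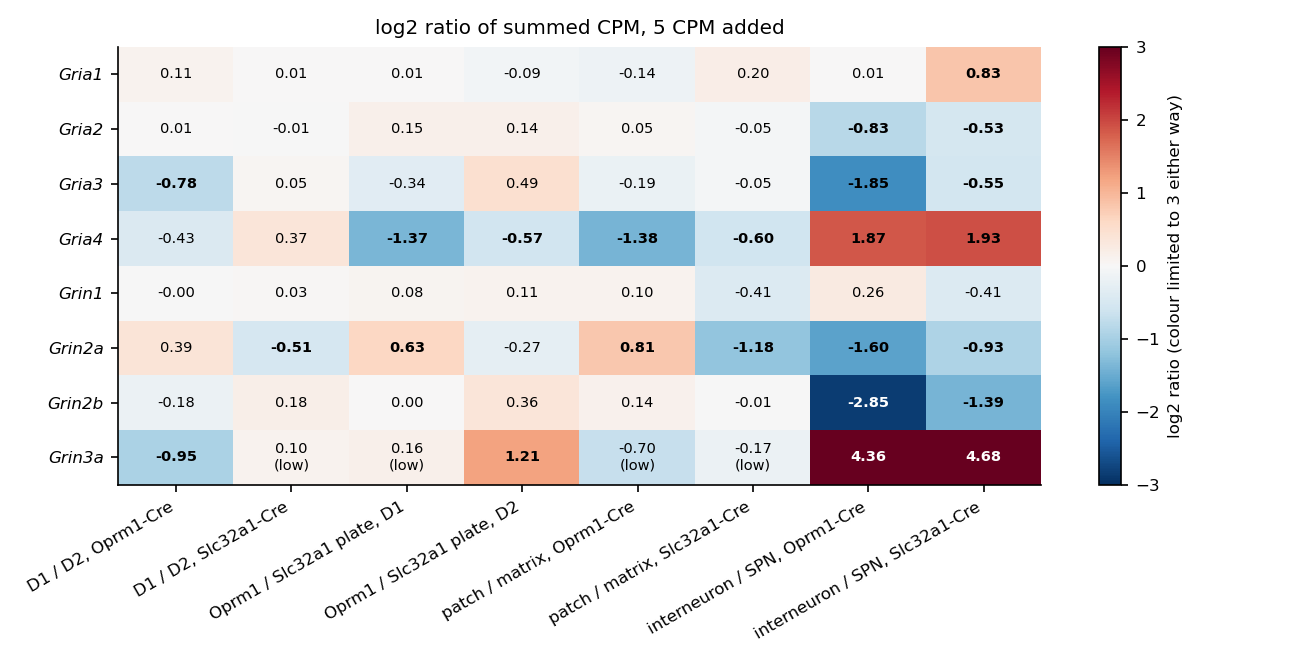
The log2 ratio of summed CPM with 5 CPM added, for each subunit (rows) and comparison (columns), coloured from blue (lower in the group named first) to red (higher), with values past 0.5 in bold and genes under 5 CPM in both groups marked low. For D1 over D2 the values past 0.5 are Gria3 and Grin3a in the Oprm1 plate and Grin2a in the Slc32a1 plate, and Gria4 has opposite signs in the plates (-0.43 and 0.37), while Gria4 is negative in both plate columns and both patch columns, and interneuron columns hold the largest values.

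The Oprm1 plate was compared with the Slc32a1 plate within a class. In D1-like nuclei 1 of 7 measured subunits lay above 0.5 and 1 below -0.5, beside 15% and 12.1% of all 11004 genes. Gria4 was lower in the Oprm1 plate with a log2 ratio of -1.37, at percentile 0.58 of the genes measured, and its call held whichever single nucleus was left out. Grin2a had 0.63, and 0.49 without 1 nucleus. Gria1 had 0.01, Grin2b 0.00, Grin1 0.08, Gria2 0.15 and Gria3 -0.34. In D2-like nuclei, only 24 of them in the Oprm1 plate, Gria4 had -0.57 and Grin3a 1.21, where 29.2% of all genes lay below -0.5 and 23.6% above 0.5. Leaving out 1 nucleus took the Gria4 value to between -1.06 and -0.45 and the Grin3a value to 0.00. Gria3 had 0.49, opposite in sign to D1-like nuclei, and lay between 0.39 and 0.55 with 1 nucleus left out. Grin2b had 0.36, Gria2 0.14, Grin1 0.11, Gria1 -0.09 and Grin2a -0.27.

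The plates drew their D1-like nuclei from different clusters, so Gria4 was also taken cluster by cluster, in the 5 SPN-like clusters that held at least 10 D1-like nuclei of each plate. It was lower in the Oprm1 plate in all 5, with overlapping counting intervals in cluster 3. In cluster 2 it had 32.7 CPM (30.1 to 35.5; 587 reads) in the Oprm1 plate and 171.7 CPM (157.1 to 187.3; 509 reads, 18 nuclei) in the Slc32a1 plate. In cluster 0 the values were 195.7 CPM (181.4 to 210.9; 18 nuclei) and 329.5 CPM (321.7 to 337.5), and in cluster 3 they were 162.3 CPM (155.9 to 168.98) over 84 nuclei and 178.5 CPM (159.3 to 199.3) over 12. Cluster 4 had 135.8 and 217.1 CPM (52 and 23 nuclei), and cluster 5 had 49.997 and 113.2 CPM (41 and 22 nuclei). The plates were not matched within clusters on the score of patch less matrix genes described below. D1-like medians of that score in the Oprm1 and Slc32a1 plates were -2.81 and -3.44 in cluster 0 and 2.22 and -1.15 in cluster 2. They were 0.41 and 0.26 in cluster 3, 0.39 and -2.30 in cluster 4 and 1.86 and -3.42 in cluster 5. The part of this score, the precursor markers, the sex of the animals and the plate in the Gria4 difference was not tested. Vcan and the Y-linked gene Ddx3y are among the leading genes of cluster 2, where Gria4 of the Oprm1 plate was lowest. Most nuclei of cluster 2 came from the Oprm1 plate, and the part of sex and plate in forming it was not tested. The precursor marker Pdgfra is among the leading genes of cluster 3.

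**Figure D4:**
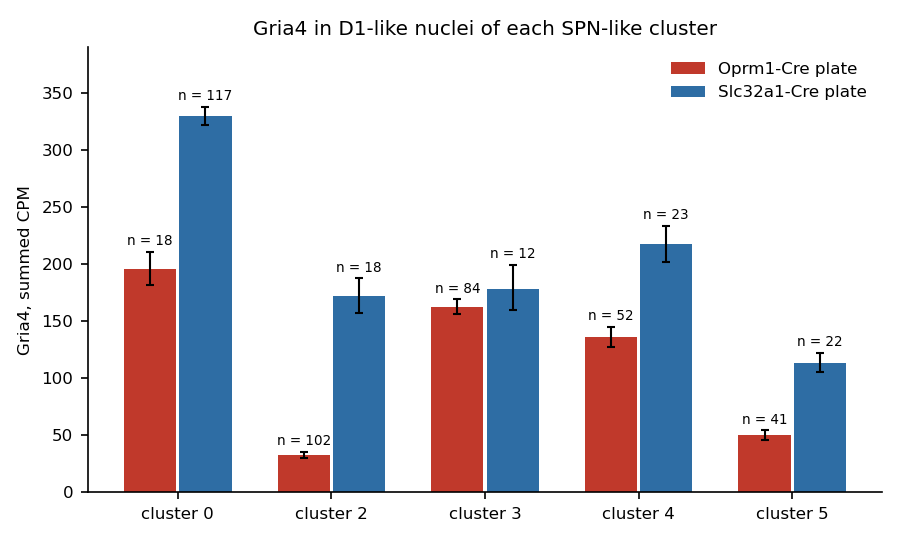
Summed Gria4 level in CPM over D1-like nuclei of each SPN-like cluster with at least 10 D1-like nuclei of both plates, Oprm1-Cre in red and Slc32a1-Cre in blue, with exact 95% counting intervals and the number of nuclei over each bar. The Oprm1-Cre bar is the lower of each pair, least so in cluster 3 (162.3 and 178.5 CPM).

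Patches and matrix are the interleaved compartments of the striatum, and the Oprm1-Cre genotype was used to bring in patch neurons. D1-like nuclei were ordered by the mean log2(CPM + 1) of 9 genes of patches less the same mean of 7 genes of the matrix, and the 25% with the highest score were set against the 25% with the lowest in each plate. The score is a range and not a cell type: patch-leaning nuclei had median scores of 3.47 and 0.02 in the Oprm1 and Slc32a1 plates, and matrix-leaning nuclei -1.83 and -5.18. In the Oprm1 plate 1 of 7 measured subunits lay above 0.5 and 1 below -0.5, beside 18.7% and 22% of all genes. In the Slc32a1 plate 2 of 7 lay below -0.5 and 0 above, beside 24.8% and 23.1%.

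Gria4 was lower in patch-leaning nuclei of both plates. In the Oprm1 plate it had 59.8 CPM over 75 patch-leaning and 164.1 CPM over 75 matrix-leaning nuclei, a log2 ratio of -1.38, with a read in 28% and 65.3% of them. In the Slc32a1 plate it had 169.2 CPM over 49 and 259.8 CPM over 49 nuclei, a log2 ratio of -0.60, with a read in 51% and 79.6%. The first call held under all 11 settings tried, whereas the second ended without 1 nucleus (-0.49) and turned to 0.27 when all D1-like nuclei of the plate were divided at the median score. Matrix-leaning nuclei of the Oprm1 plate stood at about the level of patch-leaning nuclei of the Slc32a1 plate. Grin2a went in opposite directions, with 15.4 against 6.66 CPM in the Oprm1 plate and 2.01 against 10.9 CPM in the Slc32a1 plate, and both calls ended when a single nucleus was left out. The other 5 measured subunits stayed within 0.41 of 0 in both plates, with Grin1 at 0.10 and -0.41.

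By summed level, interneuron-like nuclei differed from SPNs most in Grin3a, while the number of subunits past 0.5 was not far from that of genes at large. Against SPN-like nuclei of the same plate, 2 of 8 subunits lay above 0.5 and 4 below -0.5 in the Oprm1 plate, and 3 above and 4 below in the Slc32a1 plate. Of all genes measured, 30.8% and 30.6% lay above 0.5 in the 2 plates and 40.6% and 36.6% below -0.5. Gria4 was higher in interneuron-like nuclei with log2 ratios of 1.87 and 1.93, at percentiles 93.2 and 93.8 of the genes measured. Grin3a was higher with 4.36 and 4.68, at percentile 99.6 in both plates, with a read in 69.2% and 31.25% of interneuron-like nuclei. Neither gene was alike in the sets of interneuron-like nuclei described below. Grin2b was lower with -2.85 and -1.39, Gria3 with -1.85 and -0.55, Grin2a with -1.60 and -0.93, and Gria2 with -0.83 and -0.53. The percentiles were 4.16 and 16.1 for Grin2b and 32.7 and 35.5 for Gria2. Grin2a had a read in 15.4% and 12.5% of interneuron-like nuclei, 2 in each plate, and in 17.9% and 9.42% of SPN-like nuclei. The 5 highest SPN-like nuclei held 39.9% and 58% of the Grin2a reads of their class, so its lower sums rest on few nuclei. Gria1 had 0.01 in the Oprm1 plate and 0.83 in the Slc32a1 plate, where 1 nucleus carried it past the threshold (0.38 without it). In the Slc32a1 plate the calls of Gria2 and Gria3 also ended without single nuclei, at -0.44 and -0.41.

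These nuclei fell into 3 sets by their markers. The Sst set (3 and 5 nuclei in the Oprm1 and Slc32a1 plates) carried Sst and Npy. A set led by Trh and Th held 10 and 2 nuclei, and a set led by Pthlh and Kit held 0 and 9. All Pthlh nuclei came from the Slc32a1 plate, so the set has no values from a further plate. One of its 9 nuclei also carried Chat (324.7 CPM), the enzyme of acetylcholine synthesis.

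Of the sets and SPN classes described, Pthlh nuclei had the AMPA pool least rich in Gria2. Per kilobase of exon Gria1 made 42% of it, Gria4 25.6%, Gria2 19% and Gria3 13.4%. The order of Gria2 and Gria4 followed the length used. Per kilobase of coding sequence Gria1 made 36%, Gria2 29.7%, Gria4 23.3% and Gria3 10.9%. By exon length the Gria2 share of single nuclei ran from 5.86% through a median of 22.3% to 39.2%. Gria4 reached 355.8 CPM in the lowest, 1317 in the median and 2826 CPM in the highest of the 9 nuclei, so that all but the lowest lay above the upper quartile of 372.9 CPM of D1-like nuclei of the plate. Gria1 ran from 392.8 through 2057 to 4741 CPM. Against SPN-like nuclei of the plate the log2 ratio was 2.63 for Gria4, 1.54 for Gria1, -0.75 for Gria2 and -0.17 for Gria3, where 30.3% of genes lay above 0.5 and 41.5% below -0.5. Grin1 and Grin2b made 71.8% and 25.9% of the NMDA pool per kilobase of exon and 41.8% and 56.7% per kilobase of coding sequence. Grin2a and Grin3a had 0 reads, which allows up to 1.67 CPM of each. The nucleus with Chat had 392.8 CPM of Gria1 and 665.1 CPM of Gria4. The AMPA pool was 19.6 times the NMDA pool in this set.

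Sst nuclei were the opposite in Gria1. The 3 nuclei of the Oprm1 plate had 194.2, 6.28 and 108.9 CPM of Gria1, and the 5 of the Slc32a1 plate 78.9, 119.8, 106.1, 629.6 and 32.9 CPM. All 8 lay below the median D1-like nucleus of their plate. Gria2 made 72.1% and 60.8% of their AMPA pool, Gria1 9.11% and 6.89%, and Gria2 was the top AMPA subunit in 8 of 8 nuclei. The log2 ratio against SPN-like nuclei was -2.69 and -2.42 for Gria1, -3.0 and -2.28 for Grin2b, and 0.57 and 0.37 for Gria4. Of all genes, 56.6% and 55.2% lay below -0.5 and 27% and 26.4% above 0.5. A Gria4 read was found in 2 of the 3 nuclei of the Oprm1 plate and 3 of the 5 of the Slc32a1 plate. Grin3a had 59.5, 0 and 463.8 CPM in the 3 nuclei of the Oprm1 plate and 23.7, 0, 403.3, 0 and 87.6 CPM in the other 5. It was thus present in 5 of 8 Sst nuclei and made 37.2% and 40.2% of their NMDA pool. Of the 8, 5 held Drd1a, the D1 receptor gene, at 256.5 to 1029 CPM, and the other 3 at most 7.98 CPM, and its part in these values was not tested.

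The Trh set also had Grin3a and little Grin2b. Grin3a had a read in 7 of 10 nuclei of the Oprm1 plate, with a median of 22.98 and a maximum of 636.9 CPM, and 845.2 and 316.02 CPM in the 2 nuclei of the Slc32a1 plate. Grin2b summed to 75.4 CPM (64.1 to 88) and 35.9 CPM (21.6 to 56.1), with log2 ratios of -2.80 and -3.68, where 44.7% and 62.3% of genes lay below -0.5 and 31.1% and 26.3% above 0.5. Gria4 was present in all 12 nuclei, with log2 ratios of 2.12 and -0.46 against the SPN-like nuclei of their plate. Grin2c, a GluN2 gene known mainly from cerebellum and glia, had 67.8 CPM (57.2 to 79.9) over the 10 nuclei of the Oprm1 plate, from 5 nuclei. Over the 2 nuclei of the Slc32a1 plate it had 7.56 CPM from 4 reads, and in D1-like or D2-like nuclei at most 0.541 CPM. Summed levels of 6 astrocyte markers were 264.5 and 226.8 CPM in interneuron-like nuclei and 79.6 and 89.5 CPM across SPN-like nuclei of the Oprm1 and Slc32a1 plates, of which Aldoc gave 171.8, 133.8, 55.6 and 72.7 CPM. Their part in the Grin2c and Grin3a values was not tested.

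**Figure D5:**
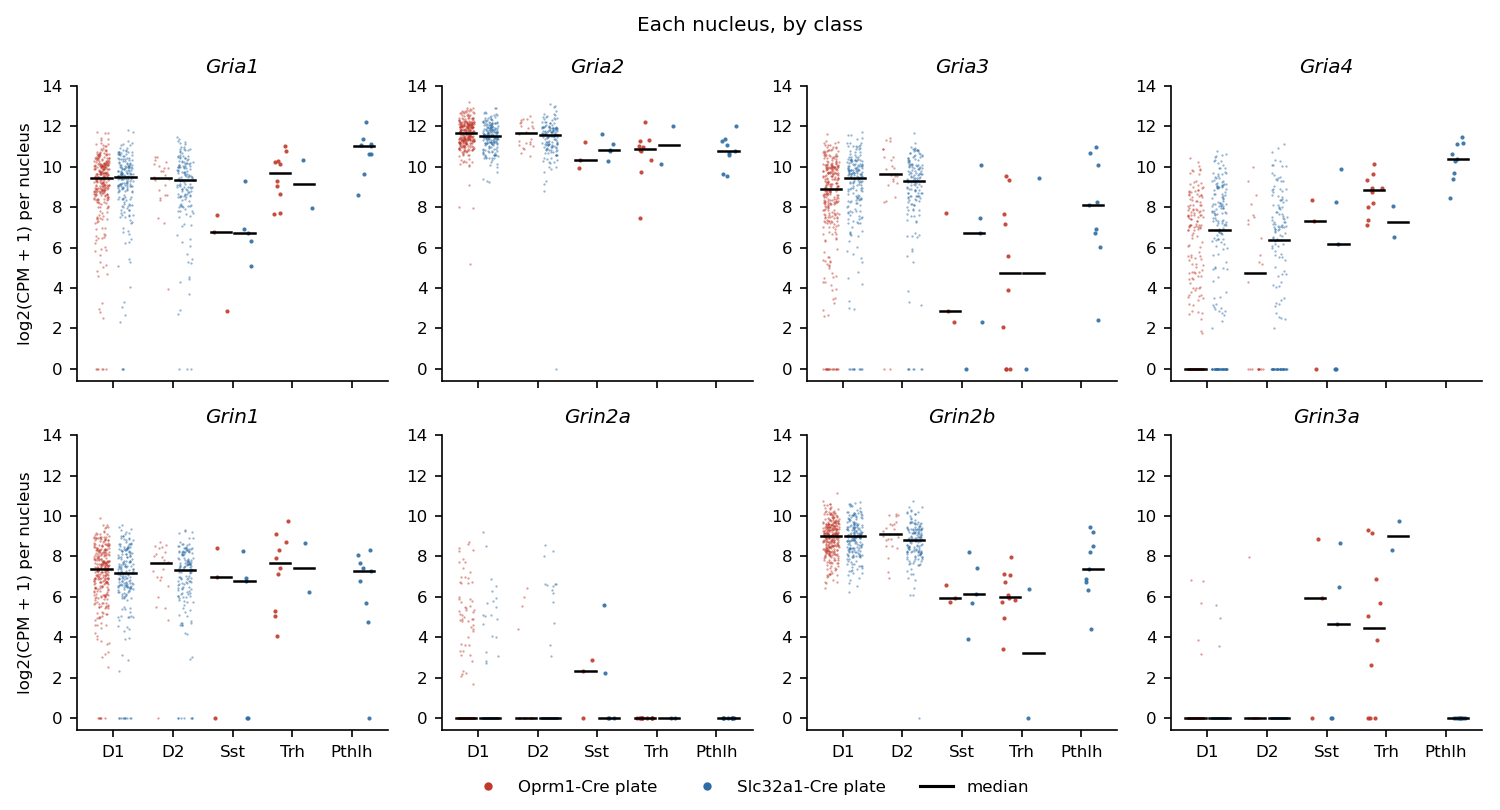
The level of each subunit in each nucleus as log2(CPM + 1), by class and interneuron set, Oprm1-Cre in red and Slc32a1-Cre in blue, with a black bar at the median. Gria2 and Grin2b are tight in D1 and D2 nuclei while Gria4 divides into nuclei with and without a read, and in Pthlh nuclei Gria1 and Gria4 are high and Grin3a is at 0 in all 9.

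Of 45 genes of the glutamate synapse, 10 of 42 measured lay above 0.5 and 4 below -0.5 between D1-like and D2-like nuclei of the Oprm1 plate, and 3 and 2 of 39 in the Slc32a1 plate. Of all genes, 30.3% lay above and 19.3% below in the Oprm1 plate, and 14.6% and 10.4% in the Slc32a1 plate. The list thus passed the threshold no more often than genes at large. Those past 0.5 in the same direction in both plates were scaffolds that anchor the receptors, Shank1 (0.53 and 1.05), Shank2 (0.82 and 0.65) and the GluA-binding Grip2 (0.62 and 0.95), with Nptx2 below (-0.56 and -0.69), a pentraxin that clusters AMPA receptors. These are low genes: Grip2 had 6.45 and 8.48 CPM among D1-like nuclei and 2.42 and 1.99 CPM among D2-like nuclei. The share of all genes past 0.5 alike in both plates was not taken, so these genes are a description only. In D1-like nuclei 7 of 41 lay above and 4 below between the plates, near the 15% and 12.1% of all genes. Cacng5, an auxiliary subunit of AMPA receptors, had 54.5 CPM in the Oprm1 plate against 16.5 CPM in the Slc32a1 plate, a log2 ratio of 1.47. In D2-like nuclei the order was the reverse, 1.45 against 26.7 CPM (-2.29), so that D1 over D2 gave 3.20 in the Oprm1 plate and -0.56 in the Slc32a1 plate. Cacng5 also had 62.5 against 31.3 CPM and 34.5 against 0 CPM in patch-leaning against matrix-leaning nuclei of the Oprm1 and Slc32a1 plates.

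Most of the list was lower in interneuron-like nuclei, 30 of 41 below -0.5 and 7 above in the Oprm1 plate and 23 of 40 below and 9 above in the Slc32a1 plate, where 40.6% and 36.6% of all genes lay below and 30.8% and 30.6% above. The medians of the list were -1.29 and -0.67, beside -0.15 and -0.08 over all measured genes. The scaffolds did not follow in the Slc32a1 plate, with 6 of 14 above 0.5, 5 below -0.5 and a median of 0.17. In the Oprm1 plate 5 of 16 scaffolds lay above and 8 below, with a median of -0.76. Gsg1l, an AMPA receptor auxiliary subunit picked after its values were seen, had 2.16 and 39.97 CPM in interneuron-like against 229.5 and 248.2 CPM in SPN-like nuclei. It had 0 reads in all 8 Sst nuclei and 74.5 CPM in Pthlh nuclei.

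By a rule on likeness, the genes among the top 20 of 9230 in both plates by Pearson's r with a subunit over SPN-like nuclei were named, at most 3 for each. They were Ptprt (0.21 and 0.19) and Abi3bp (0.20 and 0.17) for Gria4, Grin1os (0.26 and 0.35) for Grin1, and Lrrc7 (0.26 and 0.22), Adcy5 (0.31 and 0.21) and Ptpn5 (0.24 and 0.19) for Grin2b. No gene met the rule for Gria1, Gria2 or Gria3, and Grin2a and Grin3a were found in too few nuclei to be ranked. Each r is weak and is a description over the SPN-like nuclei of 1 plate. Reads of Grin1 and the overlapping Grin1os cannot be separated, so their r does not show that the genes vary together.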

How the data were processed

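The authors deposited unnormalized read counts, 1 joint table and 1 for each genotype, with identical values. The submitters' processing notes name mm10, SAMtools and Seurat. The aligner, the counter, its annotation and its use of strand were not given in the sources used here. RNA, per the labels' protocols, came from a column kit and libraries from a stranded total RNA kit, a protocol for bulk RNA. For Slc32a1-Cre wells the labels cite a table under the plate number of the other genotype, so wells were assigned by column names that match sample titles; 0 columns stayed unassigned.

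Both plates were clustered together on log counts per 10000 with 2000 variable genes, 30 components, 8 neighbours and Leiden resolution 1 (Python 3.11.15, igraph 0.11.9, leidenalg 0.10.2, scikit-learn 1.9.0). The number of neighbours was set after the Sst nuclei were seen to separate by their markers. A cluster was named by markers whose mean log2(CPM + 1) lay more than 2 above that of all kept nuclei, or as SPN-like from a mean of at least 3. D1-like and D2-like nuclei differed by more than 2 between the means of 7 markers each. No doublet caller was run, and 32 possible doublets were left out in 1 alternative. Reads were summed per class and plate, and log2 ratios were taken with 5 CPM added. Exon lengths are the union of protein-coding transcripts in GENCODE M21. Ratios were also taken on simulated counts with known changes, put only into genes higher than Grin2a and Grin3a are in SPNs. That run does not bear on sparse genes or on plate effects. All subunits were named, with Grin2c, Grin2d, Grin3b, list genes past 0.5 alike in both plates for D1 against D2 or past 1 between plates in D1-like nuclei, and likeness genes. The alternatives varied the CPM added, the mean per nucleus, TMM scaling (edgeR 4.0.16), filters, depth, margins and lengths. The subunits and gene lists were chosen with earlier results of these data known. With 1 sample per genotype no test was made. The pore sequences of 2 further NMDA subunits are not reported here.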

Additional observations from a re-analysis of the deposited data

Results flagged for a closer look

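Grin2a differed in direction between the plates when patch-leaning D1-like nuclei were set against matrix-leaning ones, with a log2 ratio of 0.81 in the Oprm1 plate and -1.18 in the Slc32a1 plate. The difference between the plates was not tested. A single nucleus decided each call, with 0.30 and -0.18 when it was left out. Wells left out of the Oprm1 plate held 29 reads of the 8 subunits over 29 wells, above the 3 reads that a count of 0 allows, and those of the Slc32a1 plate held 1 read over 3 wells.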

How the results depend on the processing

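No paired analysis was possible because each genotype is 1 plate, no animals are named, and the well numbers were given in accession order and pair nothing. The number of subunits past 0.5 changed under some settings. With 20 CPM added in place of 5 it was 1 for D1 against D2 in the Oprm1 plate, 0 in the Slc32a1 plate, 1 between plates in each of D1-like and D2-like nuclei, and 1 for patch against matrix in each plate. For D1 against D2 in the Slc32a1 plate it was 0 with the mean of CPM per nucleus, with a marker margin of 3 and without cluster 3, the last chosen after seeing the data. A margin of 1 gave 1 between plates in D2-like nuclei, and division at the median patch score gave 1 in the Oprm1-Cre and 0 in the Slc32a1 plate, where Gria4 turned to 0.27. The Gria2 share of the AMPA pool (D1-like nuclei of the Oprm1 and the Slc32a1 plate, then D2-like nuclei in the same order) was 69.9%, 63.2%, 64.3% and 64.5% per kilobase of coding sequence, and 69.5%, 62.8%, 64% and 64.1% with no length scaling. As the mean share per nucleus it was 56.5% and 49.7% in D1-like nuclei and 49.9% in D2-like nuclei of the Slc32a1 plate, and with at least 100000 reads 47.8% in D1-like nuclei of that plate. Gria2 was the top AMPA subunit per kilobase of coding sequence in 96%, 92.8%, 100% and 92.6% of nuclei. Leaving out each nucleus in turn, also chosen after seeing the data, moved Grin3a between -1.05 and 0.25 for D1 against D2 in the Oprm1 plate, and between 0.00 and 1.28 between plates in D2-like nuclei. Apart from the length used, the cause of these changes was not tested. Of the main counts and shares, 89 alternatives left the value as it was within its interval or 1.5 times and 28 did not. With 1 plate per genotype, plate, animals and genotype cannot be told apart, and sparse genes (Grin2a, Grin3a) rest on few nuclei.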

Other observations

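A few nuclei belonged to no class compared in the results. The 2 nuclei with cholinergic markers, both of the Slc32a1 plate, had 883.8 and 239.4 CPM of Gria2, 398.9 and 302.7 CPM of Gria4, and 629.6 and 103.9 CPM of Grin2b. Grin3a was at 0 in the first and at 36.1 CPM in the second. Of the 3 nuclei with oligodendrocyte markers, 1 had 0 reads of all 8 subunits in 183897 reads, and the others carried 1989.9 and 1705.5 CPM of Gria2 together with reads of Drd1a. Among the 18 SPN-like nuclei of the Oprm1 plate with neither D1 nor D2 call, Grin3a had 39.01 CPM from 2 nuclei, of which the higher had 378.5 CPM, and the 18 of the Slc32a1 plate had 0 reads.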
